A study of Mus musculus with 24 samples.

Results

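The Wnt ligands, their Frizzled and Lrp receptors, their secreted antagonists and the matricellular CCN proteins were followed across white adipose tissue (WAT) and brown adipose tissue (BAT) of mice on 3 diets. A gene entered by its symbol on the array: the Wnt genes, Fzd1 to Fzd10, Lrp5, Lrp6, Sfrp1 to Sfrp4, Dkk1 to Dkk4, Wif1 and Ccn1 to Ccn6, with the older names Cyr61, Ctgf, Nov and Wisp read as Ccn. This gave 44 of 19057 named genes, with 19 ligands, 12 receptors, 8 antagonists and 5 CCN genes, and 1 probe was used for each, the brightest over all 24 arrays. No probe was named for Ccn6 here.

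The arrays held RNA of male C57BL/6J mice from 6 groups of 4. In each tissue 1 group was on a high-fat diet (HFD) enriched in the marine omega-3 fatty acids eicosapentaenoic and docosahexaenoic acid (EPA/DHA), 1 on a HFD with corn oil and 1 on a low-fat diet. The mice had been chosen as typical of their diet by weight, plasma cholesterol and triglyceride, so the arrays do not sample a diet at random. The labels give neither the WAT depot nor the age, and do not say whether a BAT and a WAT array with the same number came from 1 mouse. Their extraction text names skeletal muscle, whereas the tissue labels name adipose tissue. The defining markers bore out the tissue labels, with Ucp1, the uncoupling protein of brown adipocytes, at 13.55 to 14.41 on the log2 scale in BAT arrays and at 7.08 to 10.63 in WAT arrays. The score of 6 brown adipocyte markers was raised in WAT EPA/DHA replicate 2 (9.41) and WAT corn-oil replicate 4 (8.41), against 7.46 to 8.02 in the other WAT arrays. Without both of these arrays Ccn5 remained the only member called between diets in WAT, and 8 of 10, 6 of 8 and 12 of 12 calls between the tissues remained on the EPA/DHA HFD, the corn-oil HFD and the low-fat diet. Neither array was on the low-fat diet, so the low-fat differences could not change, only the shared spread and the p adjustment. BAT low-fat replicate 2 correlated least with the other arrays of its tissue (mean r of 0.969, against 0.983 to 0.990 for the others); without it no member was called between diets in BAT and 10 of the 12 calls between the tissues on the low-fat diet remained. The design gives 4 arrays a group, so p-values rest on the spread between arrays of mice picked for being typical of their diet. The comparisons between tissues take no account of mice that the tissues may share.

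Wnt proteins are secreted lipid-modified ligands that bind a Frizzled receptor together with Lrp5 or Lrp6, which stabilises beta-catenin and turns on TCF/LEF target genes; other branches act through planar cell polarity and calcium. Sfrp and Wif1 proteins bind Wnt ligands outside the cell, and Dkk proteins such as Dkk1 block Lrp5 and Lrp6. In adipose tissue, Wnt/beta-catenin signalling is known for holding precursor cells back from becoming adipocytes. CCN proteins are secreted into the matrix, and Ccn1 and Ccn2 are classic targets of the YAP/TEAD pathway, with Ccn2 also induced by TGF-beta.

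Upstream sequences are shown for members that the tissue comparison turns on. RefSeq (GRCm38.p6) gave a promoter for 26 of the 44 members, and the 250 bases before 1 start site of a gene are printed 5′ to 3′ on the gene's strand. The first set are genes with more signal in WAT on every diet (Sfrp2, Fzd1 and Fzd5), and the second set are receptors with a call for more signal in BAT (Fzd7 and Fzd10). Capitals mark matches on either strand. The TCF/LEF motif searched was CTTTGAT. For the TEAD factors, which YAP and TAZ bind, it was CATTCC. The TATA motif was spelled TATAAA. The GC box, read by Sp factors, was GGGCGG, and overlapping GC boxes were each counted.
Sfrp2 (chr3:83766071-83766320, plus strand): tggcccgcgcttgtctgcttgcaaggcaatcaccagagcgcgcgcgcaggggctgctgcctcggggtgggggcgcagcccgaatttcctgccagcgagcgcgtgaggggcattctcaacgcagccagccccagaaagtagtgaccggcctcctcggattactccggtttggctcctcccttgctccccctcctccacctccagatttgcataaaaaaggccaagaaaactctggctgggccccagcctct
Fzd1 (chr5:4758217-4758466, minus strand): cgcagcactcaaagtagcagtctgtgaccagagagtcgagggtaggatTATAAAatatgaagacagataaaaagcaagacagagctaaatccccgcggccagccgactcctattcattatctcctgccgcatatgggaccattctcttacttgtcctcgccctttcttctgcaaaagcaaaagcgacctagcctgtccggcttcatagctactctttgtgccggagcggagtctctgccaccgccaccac
Fzd5 (chr1:64737751-64738000, minus strand): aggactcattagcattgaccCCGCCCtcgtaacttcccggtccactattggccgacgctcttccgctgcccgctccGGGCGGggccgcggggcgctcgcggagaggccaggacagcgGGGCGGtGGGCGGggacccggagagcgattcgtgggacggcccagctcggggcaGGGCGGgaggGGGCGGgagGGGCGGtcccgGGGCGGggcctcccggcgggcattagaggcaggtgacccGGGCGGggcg
Fzd7 (chr1:59481897-59482146, plus strand): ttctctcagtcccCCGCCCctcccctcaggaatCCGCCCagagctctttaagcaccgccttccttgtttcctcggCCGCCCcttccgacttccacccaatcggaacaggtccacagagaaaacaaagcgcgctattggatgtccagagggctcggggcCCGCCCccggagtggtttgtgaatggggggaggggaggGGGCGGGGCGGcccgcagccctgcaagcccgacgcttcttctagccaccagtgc
Fzd10 (chr5:128600856-128601105, plus strand): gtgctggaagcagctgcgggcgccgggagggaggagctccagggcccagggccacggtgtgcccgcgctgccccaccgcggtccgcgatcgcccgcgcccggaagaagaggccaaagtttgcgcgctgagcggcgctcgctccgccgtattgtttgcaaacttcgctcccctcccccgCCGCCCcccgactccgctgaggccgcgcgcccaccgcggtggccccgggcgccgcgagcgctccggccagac
Sfrp2 held none of the 4 motifs in this window. The annotated span of Sfrp2 starts at chr3:83765750, so its window lies inside the span and not upstream of the whole gene. Fzd1 held a TATA match at -202 to -197, Fzd5 held 9 GC boxes, Fzd7 held 6 and Fzd10 held 1. Among the 26 member promoters 20 held a GC box (76.92%), against 32.94% of all 27025 promoters of the same length. The TCF/LEF letters were found in 1 member, Wnt11 (3.85%, against 3.23% of all), the TEAD letters in 1, Ccn1 (3.85%, against 12.63%), and the TATA letters in 6 (23.08%, against 12.97%). These matches are descriptions of sequence, not binding sites.

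Most members gave little signal. The lowest values on the arrays lie near 7 on the log2 scale, where differences are compressed, so a gene close to that floor can differ by more than the array shows. Of the 44 members 34 passed the filter on low values in at least 1 tissue, meaning that the mean of the probe lay above the 40th percentile of all probes of that tissue (7.11 in both), with 29 passing in WAT and 33 in BAT. The 10 that passed in neither were the ligands Wnt1, Wnt3a, Wnt7a, Wnt7b, Wnt8a, Wnt9a and Wnt9b, the antagonists Dkk2 and Dkk4, and Ccn3. Above the 60th percentile there were 18 members in WAT and 16 in BAT. Receptors made up 9 of those in WAT and 8 of those in BAT, and only 2 ligands were among them in each tissue. Levels of different genes cannot be ranked on these arrays, because each probe has its own response.

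**Figure D1:**
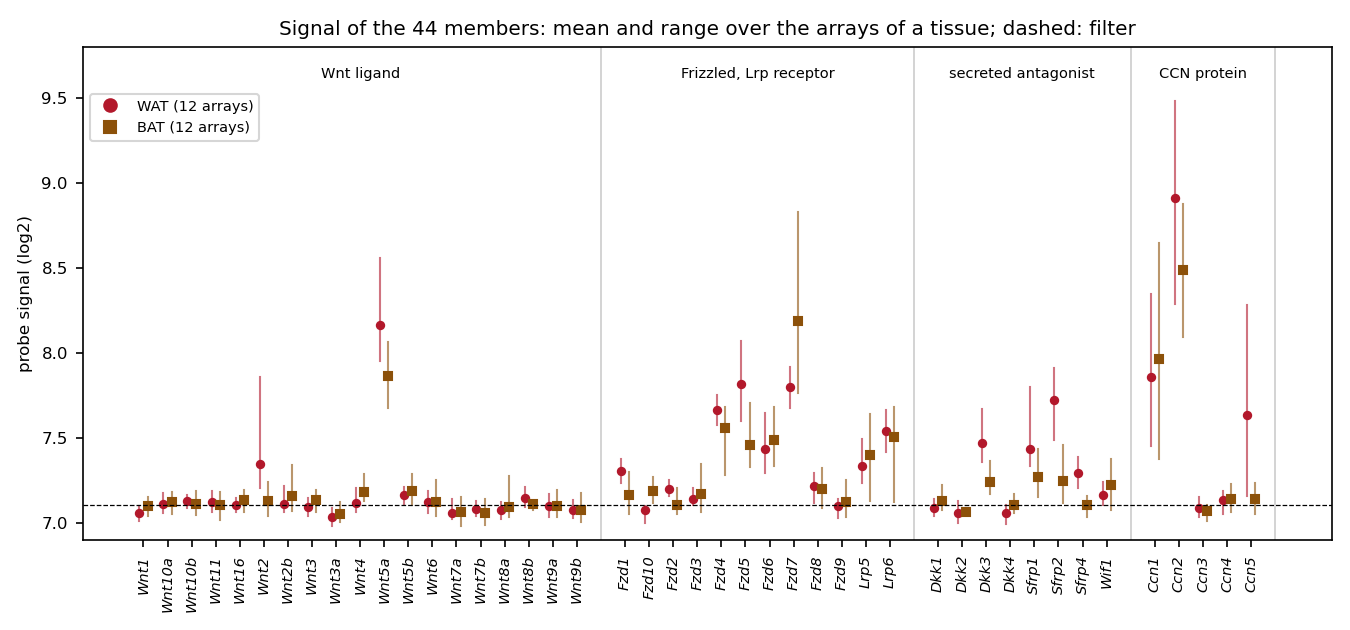
Mean probe signal (log2) of each of the 44 members in WAT (circles) and BAT (squares), ordered by role, with lines from the lowest to the highest of the 12 arrays of a tissue. The dashed line is the filter value of 7.11 in WAT; 7 of the 19 ligands passed the filter in neither tissue.

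Among the ligands, Wnt5a, which acts mainly through the beta-catenin-independent branches, had 8.23, 7.95, 8.12 and 8.56 in WAT on the EPA/DHA HFD, 8.32, 8.02, 8.29 and 8.06 in WAT on the corn-oil HFD and 8.15, 8.24, 8.03 and 8.04 in WAT on the low-fat diet. In BAT it had 7.81, 7.79, 8.06 and 8.04 on the EPA/DHA HFD, 8.03, 8.07, 7.97 and 7.68 on the corn-oil HFD and 7.72, 7.77, 7.76 and 7.68 on the low-fat diet. The WAT groups overlapped one another, while in BAT every array on the EPA/DHA HFD lay above every array on the low-fat diet. The other ligand among the highest in WAT, Wnt2, averaged 7.31 ± 0.07 on the EPA/DHA HFD, 7.31 ± 0.08 on the corn-oil HFD and 7.44 ± 0.28 on the low-fat diet (SD, n = 4 each), and 7.13 ± 0.08, 7.13 ± 0.02 and 7.14 ± 0.03 on the same diets in BAT. Wnt5b, the other of the highest in BAT, lay between 7.11 and 7.29 over the 12 BAT arrays.

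The diet comparisons asked whether a HFD, and its fat source, moved these genes within a tissue. In WAT the answer rested on a single gene. Ccn5 (older name Wisp2), a secreted CCN protein made by adipose precursor and other mesenchymal cells, had 7.16, 7.30, 7.28 and 7.27 in WAT on the EPA/DHA HFD, 8.21, 7.84, 8.26 and 8.28 on the corn-oil HFD and 7.42, 7.75, 7.47 and 7.41 on the low-fat diet. The 3 groups did not overlap: every corn-oil array lay above every low-fat array, and every low-fat array lay above every EPA/DHA array. Its 1 probe targets a gene at chr2:163820752-163833146 (GRCm38.p6).

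On the corn-oil HFD against the low-fat diet Ccn5 rose by 0.64 ± 0.10 (log2, SE; 95% interval 0.41 to 0.86; limma adjusted p = 0.0124, over all probes tested). It was the only one of 29 members called in that comparison, where 2.93% of the 27168 probes tested were called (adjusted p under 0.05, either direction). On the EPA/DHA HFD against the corn-oil HFD Ccn5 fell by 0.89 ± 0.10 (95% interval -1.12 to -0.67; limma adjusted p = 0.00274), again as the only one of 29, with 1.76% of probes called. Both comparisons use the corn-oil arrays, so they are not independent of each other. Between the EPA/DHA HFD and the low-fat diet Ccn5 differed by -0.26 (95% interval -0.48 to -0.03; limma adjusted p = 0.586), and 0 of 29 members were called by limma, with 0.0479% of probes called. The counts at an unadjusted p under 0.05 were 2, 2 and 3 of 29 members for corn-oil against low-fat, EPA/DHA against low-fat and EPA/DHA against corn-oil in that order, beside 16.1%, 7.59% and 14.7% of all probes.

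**Figure D2:**
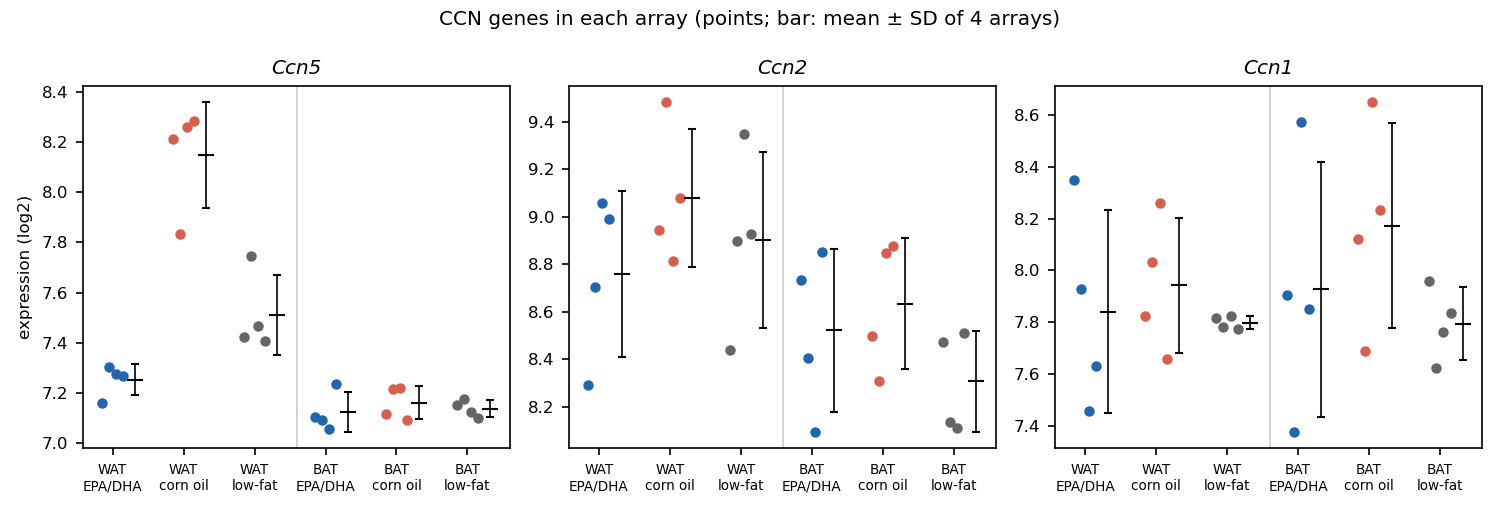
Expression (log2) of Ccn5, Ccn2 and Ccn1 in each array of the 6 groups (points), with the mean and SD of 4 arrays beside them. The 4 Ccn5 arrays of WAT on the corn-oil HFD (7.84 to 8.28) lie above all others, while the groups of Ccn1 and Ccn2 overlap.

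Ccn5 stayed near the floor in BAT, at 7.11, 7.10, 7.06 and 7.24 on the EPA/DHA HFD, 7.12, 7.22, 7.22 and 7.09 on the corn-oil HFD and 7.15, 7.18, 7.12 and 7.10 on the low-fat diet. These groups overlapped fully, and the difference of corn-oil from low-fat was 0.02 (limma adjusted p = 0.928). The diet effect was therefore tested for a difference between tissues. Corn-oil against low-fat differed by 0.61 ± 0.12 more in WAT than in BAT (SE; limma adjusted p = 0.0172), with Ccn5 as the only one of 34 members called and 0.505% of probes called. EPA/DHA against corn-oil differed by -0.86 ± 0.12 (limma adjusted p = 0.00144), again with Ccn5 as the only member called and 0.197% of probes called. EPA/DHA against low-fat differed by -0.24 (limma adjusted p = 0.774), with no member called, 0.0102% of probes called and Ccn5 alone under an unadjusted p of 0.05. The call for corn-oil against low-fat was lost without WAT low-fat replicate 4, where it was 0.58 (limma adjusted p = 0.0522), and a probe near the floor in BAT can hide a change there.

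Cell type markers gave the setting for Ccn5 in WAT. The score of 8 fibroblast and preadipocyte markers, all measured, ran over 9.76 to 9.97 on the EPA/DHA HFD, 9.75 to 9.86 on the corn-oil HFD and 9.83 to 9.98 on the low-fat diet, so these groups overlapped where Ccn5 did not. The score of 6 of 7 mesothelial markers was lower on the corn-oil HFD (7.40 to 7.65) than on the low-fat diet (7.78 to 8.05) in every array, with 7.47 to 7.85 on the EPA/DHA HFD. The score of the 6 macrophage markers lay over 9.29 to 9.72 on the EPA/DHA HFD, 9.60 to 9.88 on the corn-oil HFD and 9.31 to 9.65 on the low-fat diet, highest on the corn-oil HFD as Ccn5 was, with overlap. Of the 5 macrophage markers tested in WAT 4 had a positive difference on the corn-oil HFD against low-fat (median 0.45) and 4 a negative one on the EPA/DHA HFD against corn-oil (median -0.31), none called. The score of the 5 liver markers lay over 8.47 to 10.09, 8.64 to 10.58 and 8.68 to 10.49 on the EPA/DHA HFD, the corn-oil HFD and the low-fat diet. All 3 liver markers tested ran the way of Ccn5 (medians 0.44 and -1.14 in the same comparisons), none called, and with the liver score as a covariate Ccn5 differed by 0.65 (limma adjusted p = 0.0172) and -0.93 (limma adjusted p = 0.00695). The scores of the 5 smooth muscle and pericyte markers (8.39 to 8.77 on the EPA/DHA HFD, 8.78 to 8.93 on the corn-oil HFD, 8.62 to 8.84 on the low-fat diet) and the 6 endothelial markers (8.54 to 8.61, 8.62 to 8.74 and 8.58 to 8.72 on the same diets) separated EPA/DHA from corn-oil but not corn-oil from low-fat. Of the 4 smooth muscle markers tested, 2 rose and 2 fell on the corn-oil HFD against low-fat, none called. Among them Acta2 rose by 0.87, with 13.54 to 13.98 on the corn-oil HFD and 12.45 to 13.41 on the low-fat diet. On the EPA/DHA HFD it lay over 11.98 to 13.70, overlapping both. Of single markers in WAT, only Pvalb of the skeletal muscle list was called between diets, up by 0.29 on the corn-oil HFD against low-fat (limma adjusted p = 0.0114) and down on the EPA/DHA HFD against corn-oil (-0.29, limma adjusted p = 0.0141). The liver fit was chosen after the data were seen, and Alb and Fgb of its markers lay next to the floor, so it gives no verdict on liver RNA. The part of any of these cell types in the Ccn5 differences was not tested, and fewer cells of a type and less RNA per cell cannot be told apart in whole tissue.

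For orientation, Sfrp5, an adipocyte-linked Sfrp outside the 44, moved the same way as Ccn5 in WAT, by 0.81 on the corn-oil HFD against low-fat (limma adjusted p = 0.0344) and by -1.12 on the EPA/DHA HFD against corn-oil (limma adjusted p = 0.0123). None of the antagonists among the members was called between diets. The 5 antagonists tested in WAT differed by -0.11 to -0.01 on the corn-oil HFD against low-fat and by -0.02 to 0.13 on the EPA/DHA HFD against corn-oil. Dkk3, a Dickkopf family member, had the smallest p among them on the corn-oil HFD against low-fat (-0.11, 95% interval -0.23 to 0.01; limma adjusted p = 0.366). Sfrp2, which binds Wnt ligands, differed by 0.13 on the EPA/DHA HFD against corn-oil (limma adjusted p = 0.556).

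Ccn1 and Ccn2, the best known CCN genes, varied more within a group than any other member in WAT. The residual SD was 0.34 for Ccn2 and 0.27 for Ccn1, beside a median of 0.06 over the probes kept. Ccn2 had 8.29, 8.70, 9.06 and 8.99 in WAT on the EPA/DHA HFD, 8.94, 9.48, 8.81 and 9.08 on the corn-oil HFD and 8.44, 8.90, 9.35 and 8.93 on the low-fat diet. These groups overlapped, and the difference on the corn-oil HFD against low-fat was 0.18 with a 95% interval of -0.31 to 0.66. For Ccn1 it was 0.15 (-0.24 to 0.53), and in BAT it was 0.33 (-0.07 to 0.73) for Ccn2 and 0.38 (-0.15 to 0.90) for Ccn1. Ccn2 differed by -0.32 in WAT on the EPA/DHA HFD against corn-oil (-0.80 to 0.16; limma adjusted p = 0.568).

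The ligands and receptors showed small differences between diets in WAT. The 10 ligands tested lay within -0.14 to 0.06 on the corn-oil HFD against low-fat and within -0.06 to 0.05 on the EPA/DHA HFD against corn-oil. Wnt8b, a ligand known from the developing brain, had the smallest p among them, with 7.13, 7.17, 7.10 and 7.13 on the EPA/DHA HFD, 7.18, 7.20, 7.18 and 7.21 on the corn-oil HFD and 7.16, 7.13, 7.12 and 7.11 on the low-fat diet. Its corn-oil arrays lay above all the others, by 0.06 against low-fat (limma adjusted p = 0.144), with all values next to the floor. Wnt10a, a canonical ligand that inhibits adipogenesis, differed by -0.05 on the corn-oil HFD against low-fat (limma adjusted p = 0.361) and by 0.04 on the EPA/DHA HFD against corn-oil (limma adjusted p = 0.459). Wnt5b differed by 0.06 on the EPA/DHA HFD against low-fat (limma adjusted p = 0.655), and Wif1 by -0.05 (limma adjusted p = 0.741).

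Among the receptors in WAT, Fzd3, which acts in planar cell polarity, differed by 0.05 on the EPA/DHA HFD against corn-oil (limma adjusted p = 0.157), by 0.02 on the EPA/DHA HFD against low-fat (limma adjusted p = 0.839) and by -0.03 on the corn-oil HFD against low-fat (limma adjusted p = 0.427). Fzd5, a receptor for Wnt5a among others, differed by -0.18 on the EPA/DHA HFD against corn-oil (95% interval -0.37 to 0.02; limma adjusted p = 0.405). Fzd6 differed by 0.11 on the EPA/DHA HFD against low-fat (95% interval -0.04 to 0.26; limma adjusted p = 0.789). The median difference over all 29 members was 0.00, -0.01 and 0.00 for corn-oil against low-fat, EPA/DHA against low-fat and EPA/DHA against corn-oil, as it was within 0.01 of 0 over all named genes.

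**Figure D3:**
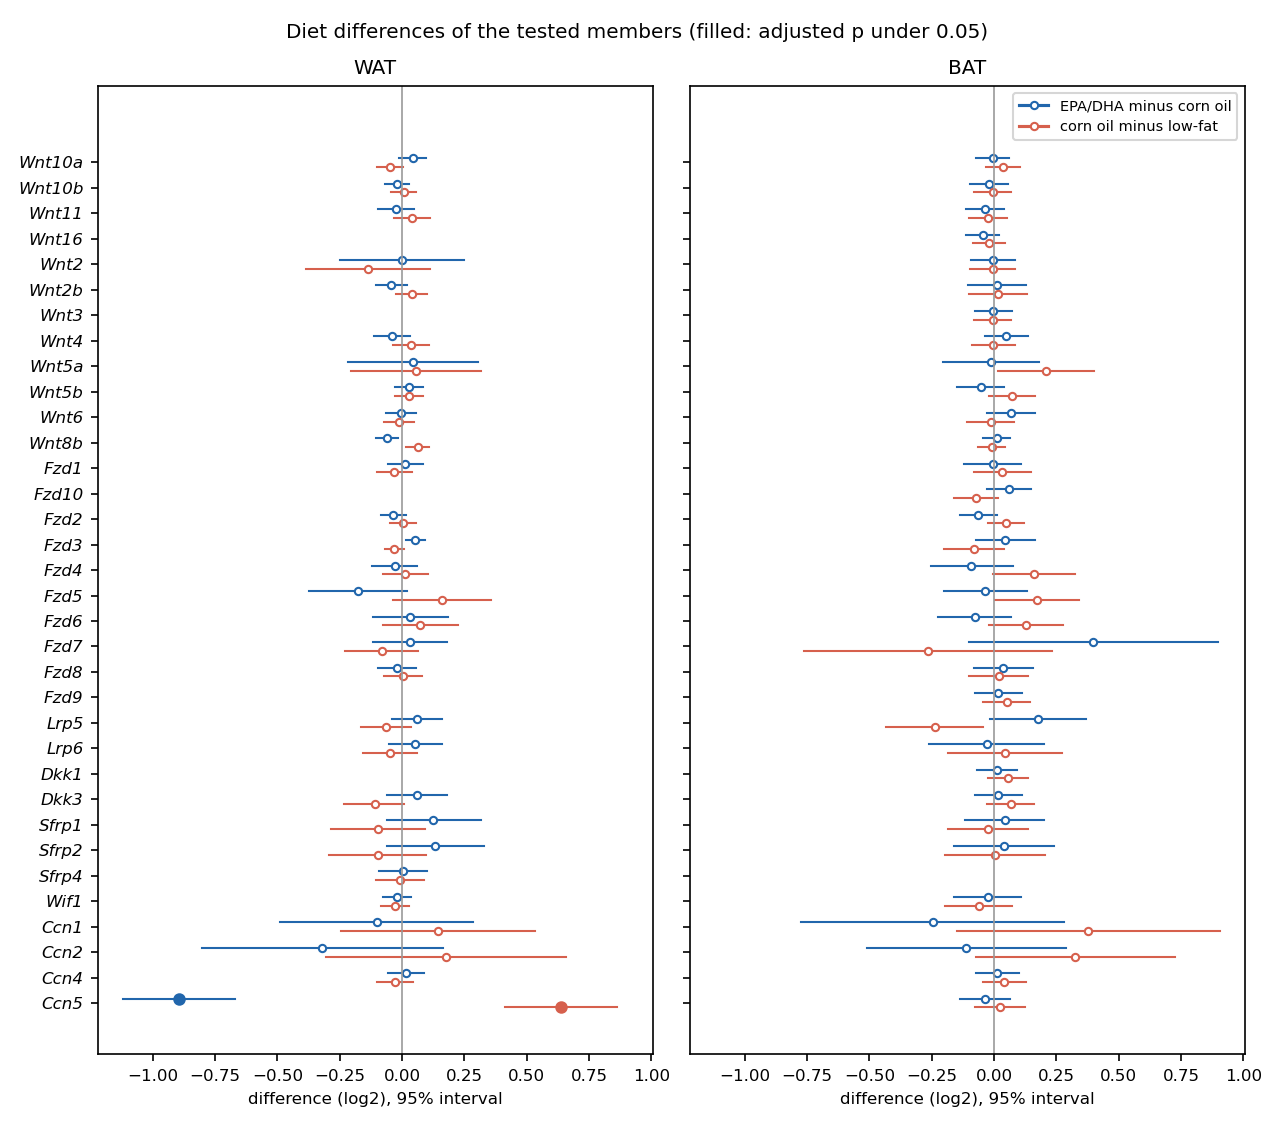
Differences between diets (log2) of the members tested in WAT (left) and in BAT (right), as EPA/DHA HFD minus corn-oil HFD (blue) and corn-oil HFD minus low-fat diet (red), with 95% intervals. Filled points are called by limma: only Ccn5 in WAT, at -0.89 and 0.64.

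In BAT no member was called between diets. Of 33 members 0 were called by limma on the corn-oil HFD against low-fat, where 0% of 27168 probes were called, 0 on the EPA/DHA HFD against low-fat, with 0.00736% of probes called, and 0 on the EPA/DHA HFD against corn-oil, with 0% of probes called. The counts at an unadjusted p under 0.05 were 3, 2 and 0 of 33, beside 8.06%, 5.05% and 4.65% of all probes. Lrp5, the Wnt co-receptor, had the smallest p, with 7.64, 7.41, 7.40 and 7.31 on the EPA/DHA HFD, 7.18, 7.32, 7.13 and 7.42 on the corn-oil HFD and 7.53, 7.34, 7.49 and 7.64 on the low-fat diet. Its corn-oil arrays were the lowest on average, but the groups overlapped (-0.24 against low-fat; limma adjusted p = 0.506), and the other 3 probes of Lrp5 gave -0.03, -0.03 and 0.10. Wnt5a differed by 0.21 on the corn-oil HFD against low-fat (95% interval 0.01 to 0.40; limma adjusted p = 0.589) and by 0.20 on the EPA/DHA HFD against low-fat (limma adjusted p = 0.981), 2 comparisons that share the low-fat arrays.

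Other receptors in BAT had wide intervals. On the corn-oil HFD against low-fat, Fzd5 differed by 0.17 (95% interval 0.01 to 0.34; limma adjusted p = 0.61), Fzd4, the receptor for norrin as well as Wnt ligands, by 0.16 (limma adjusted p = 0.627) and Fzd6 by 0.13 (limma adjusted p = 0.679). Fzd7, a receptor of the canonical branch, had 8.12, 7.77, 8.76 and 8.83 on the EPA/DHA HFD, 7.87, 8.06, 8.12 and 7.83 on the corn-oil HFD and 7.91, 8.40, 8.57 and 8.06 on the low-fat diet. The EPA/DHA arrays spread over both other groups, and the difference from corn-oil was 0.40 (95% interval -0.10 to 0.90; limma adjusted p = 0.999). Ligands and antagonists near the floor, among them Wnt16 (-0.07) and Dkk1 (0.07) on the EPA/DHA HFD against low-fat, had limma adjusted p of 0.981 and 0.986.

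The same genes were then compared between the tissues within each diet. On the EPA/DHA HFD 10 of 34 members were called, 7 higher and 3 lower in WAT than in BAT, where 31.7% of 29493 probes were called. On the corn-oil HFD 8 of 34 were called, all higher in WAT, beside 34.4% of probes. On the low-fat diet 12 of 34 were called, 11 higher and 1 lower in WAT, beside 37.5% of probes. Over all probes 16.3%, 18.1% and 18.7% were called higher and 15.4%, 16.3% and 18.7% lower in WAT on these diets in the same order. The members' total counts are thus close to or below the background of these tissues, and the count is not a result about the members. Their lean towards WAT was not tested. The identity of the genes and the size of their differences are what follow. The 6 genes called higher in WAT on all 3 diets were the antagonists Sfrp2, Sfrp4 and Dkk3 and the receptors Fzd1, Fzd2 and Fzd5, 6 of 34 beside 22.7% of probes called in 1 direction on every diet. Of the 34, 6 entered through the filter in 1 tissue only (Sfrp4 through WAT, and Wnt3, Wnt16, Fzd9, Fzd10 and Dkk1 through BAT), so counts over the 34 are not support for a difference. Of these 6 genes only Sfrp4 and Fzd10 did not overlap between the tissues, and their non-overlap is a description.

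Sfrp2 had 7.82, 7.87, 7.66 and 7.76 in WAT and 7.14, 7.26, 7.26 and 7.46 in BAT on the EPA/DHA HFD. On the corn-oil HFD it had 7.49, 7.91, 7.53 and 7.66 in WAT and 7.19, 7.12, 7.46 and 7.18 in BAT, and on the low-fat diet 7.71, 7.76, 7.63 and 7.88 in WAT and 7.15, 7.43, 7.16 and 7.20 in BAT. No BAT array reached a WAT array on any diet. The differences were 0.50 ± 0.09 on the EPA/DHA HFD (SE; limma adjusted p = 0.00023), 0.41 ± 0.09 on the corn-oil HFD (limma adjusted p = 0.00151) and 0.51 ± 0.09 on the low-fat diet (limma adjusted p = 0.00016). Sfrp4, another Wnt-binding antagonist, lay over 7.21 to 7.39 in the 12 WAT arrays and 7.04 to 7.16 in the 12 BAT arrays, also without overlap, with differences of 0.18, 0.16 and 0.23 on the same diets (limma adjusted p = 0.00116, 0.00294 and 5.6e-05 with every probe tested, since Sfrp4 passed the filter only through WAT, where it is higher). Dkk3 differed by 0.20, 0.16 and 0.34 (limma adjusted p = 0.00309, 0.0152 and 1.2e-05), and its second probe by 0.15, 0.07 and 0.27, with the corn-oil value of that probe not called (limma adjusted p = 0.333). The Dkk3 call on the corn-oil HFD was lost without BAT corn-oil replicate 1 (0.135, limma adjusted p = 0.0575) and with the mean of its probes (0.07, limma adjusted p = 0.0805).

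Sfrp1, which like Sfrp2 and Dkk3 lay above the 60th percentile of probes in both tissues, was not called on any diet. It differed by 0.20, 0.11 and 0.19 on the EPA/DHA HFD, the corn-oil HFD and the low-fat diet (limma adjusted p = 0.0732, 0.314 and 0.0824). On the EPA/DHA HFD, WAT replicate 2, an array with a raised brown adipocyte score, had 7.80, against 7.37 to 7.41 in the other WAT arrays of that diet.

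**Figure D4:**
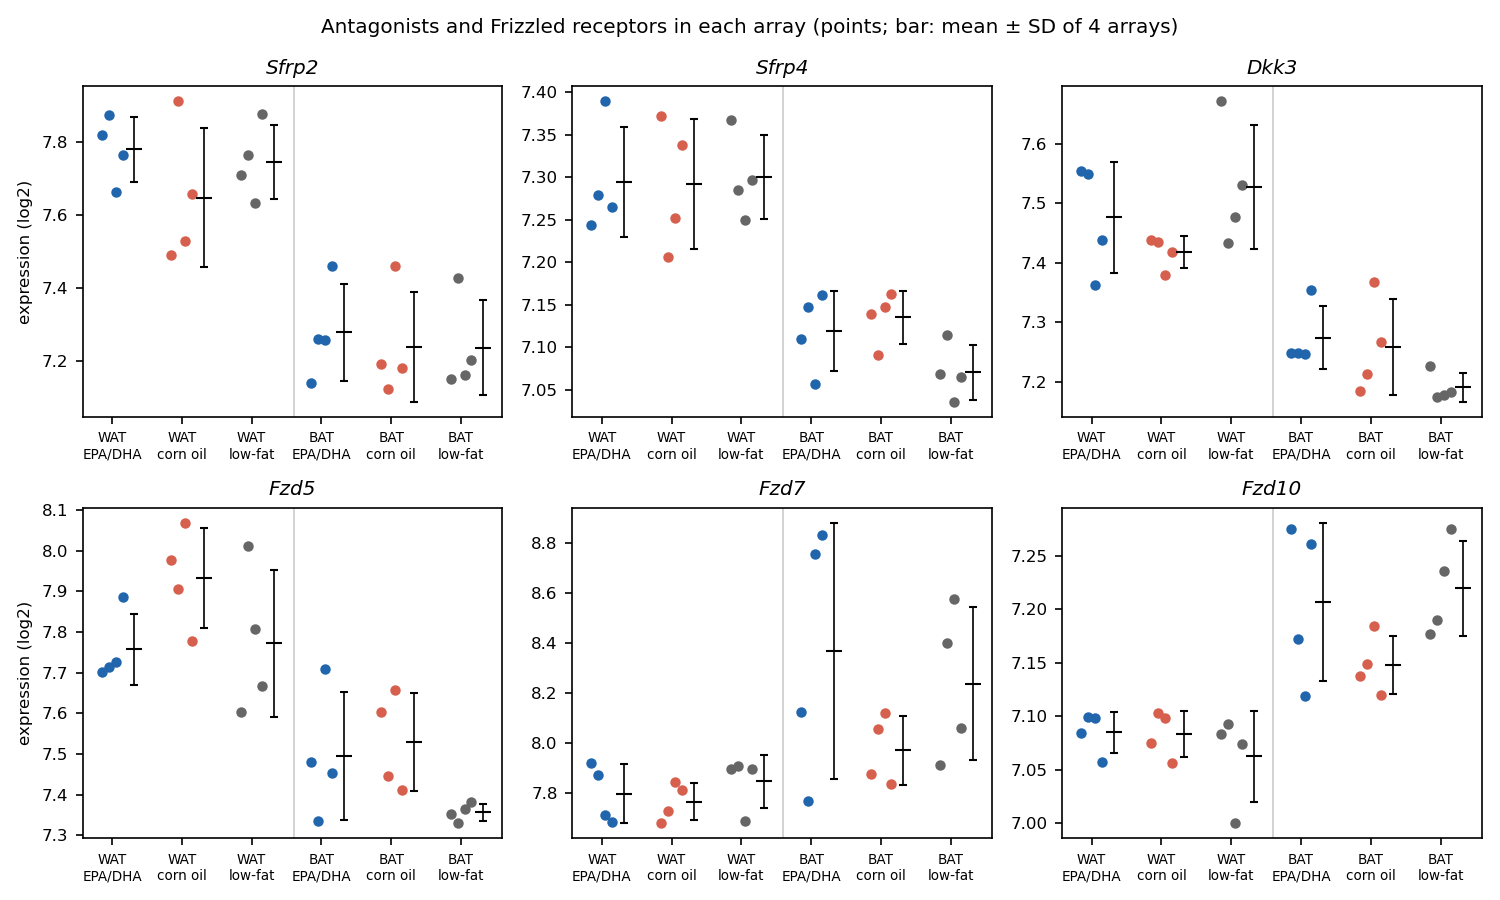
Expression (log2) of the antagonists Sfrp2, Sfrp4 and Dkk3 and of the receptors Fzd5, Fzd7 and Fzd10 in each array (points), with the mean and SD of 4 arrays. Sfrp2 and Sfrp4 are higher in all WAT arrays than in all BAT arrays, while Fzd7 is spread over 7.77 to 8.83 in BAT on the EPA/DHA HFD.

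Among the receptors, Fzd5 was higher in WAT by 0.26 ± 0.09 on the EPA/DHA HFD, 0.40 ± 0.09 on the corn-oil HFD and 0.42 ± 0.09 on the low-fat diet (SE; limma adjusted p = 0.0226, 0.00078 and 0.00054). Its other probe above the filter gave -0.03, -0.01 and -0.02 with no call, so the result holds for 1 probe of Fzd5. Fzd1, a canonical Wnt receptor, was higher in WAT by 0.14, 0.12 and 0.18 (limma adjusted p = 0.0198, 0.0426 and 0.00235), and Fzd2 by 0.10, 0.07 and 0.11 (limma adjusted p = 0.00663, 0.0461 and 0.00197). The Fzd2 arrays lay over 7.16 to 7.26 in WAT and next to the floor, at 7.05 to 7.21, in BAT. The corn-oil calls were each lost in 6 of 8 fits that left out 1 array, for Fzd1 without WAT or BAT replicate 2, 3 or 4 and for Fzd2 without WAT replicate 1, 3 or 4 or BAT replicate 1, 2 or 4, with lowest differences of 0.09 and 0.06. On the EPA/DHA HFD the calls were each lost in 3 of 8 such fits, for Fzd1 without WAT replicate 2 or BAT replicate 3 or 4 and for Fzd5 without WAT replicate 4 or BAT replicate 2 or 4, and Fzd5 averaged over all its probes differed by 0.04 (limma adjusted p = 0.258). Fzd4 was higher in WAT on the low-fat diet by 0.18 (limma adjusted p = 0.0282). It had 7.65, 7.60, 7.69 and 7.72 in WAT and 7.58, 7.29, 7.42 and 7.66 in BAT, so the groups overlapped. The lowest of these, 7.29, was BAT replicate 2, the array that correlated least with the others of its tissue. Without that array 2 of the 12 low-fat calls were lost, Ccn2 and 1 of Fzd1, Fzd2 and Fzd4.

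Fzd10 and Fzd7 were the receptors with a call for more signal in BAT. Fzd10 passed the filter only through BAT, where it is higher, so its values are a description and its p-values are those with every probe tested. Fzd10 had 7.08, 7.10, 7.10 and 7.06 in WAT and 7.28, 7.17, 7.12 and 7.26 in BAT on the EPA/DHA HFD, and 7.08, 7.09, 7.0 and 7.07 in WAT and 7.18, 7.19, 7.24 and 7.27 in BAT on the low-fat diet. No WAT array reached a BAT array on either diet, with differences of -0.12 (limma adjusted p = 0.00505) and -0.16 (limma adjusted p = 0.00041), and it was -0.06 on the corn-oil HFD. The other Fzd10 probes averaged 7.07 and 7.04 in WAT and 7.09 and 7.09 in BAT on the EPA/DHA HFD. On the low-fat diet they averaged 7.07 and 7.07 in WAT and 7.12 and 7.05 in BAT. The calls thus rest on 1 probe of Fzd10, and all its probes lay next to the floor. With the skeletal muscle score as a covariate both calls of Fzd10 were lost, at -0.064 on the EPA/DHA HFD (limma adjusted p = 0.276) and -0.103 on the low-fat diet (limma adjusted p = 0.0502). That score did not overlap between the tissues, so the fit cannot separate muscle from tissue. Fzd7 had 7.92, 7.87, 7.71 and 7.69 in WAT on the EPA/DHA HFD, against the BAT values given above, with a difference of -0.57 ± 0.18 (SE; limma adjusted p = 0.0157). It was -0.21 on the corn-oil HFD (limma adjusted p = 0.409) and -0.39 on the low-fat diet (limma adjusted p = 0.0879). The EPA/DHA call of Fzd7 was lost without BAT EPA/DHA replicate 3 (-0.44, limma adjusted p = 0.0671) or replicate 4 (-0.42, limma adjusted p = 0.0723).

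Of the ligands, Wnt5a was higher in WAT by 0.29 ± 0.11 on the EPA/DHA HFD (SE; limma adjusted p = 0.0459) and 0.38 ± 0.11 on the low-fat diet (limma adjusted p = 0.00733), and differed by 0.23 on the corn-oil HFD (limma adjusted p = 0.106). On the low-fat diet 2 other Wnt5a probes gave 0.07 and 0.06 with no call. Wnt2 was higher in WAT on the low-fat diet by 0.31 (limma adjusted p = 0.00798), with 7.86 in replicate 1 and 7.26 to 7.35 in the other WAT arrays of that diet, and by 0.168 without replicate 1 (limma adjusted p = 0.00786). Wnt8b was higher in WAT on the corn-oil HFD by 0.09 (limma adjusted p = 0.00118), and Wnt4, a ligand of several developing organs, was lower in WAT on the EPA/DHA HFD, at -0.11 (limma adjusted p = 0.0222), with both tissues next to the floor. The Wnt5a call on the EPA/DHA HFD was lost in 4 of 8 fits that left out 1 array, without WAT replicate 1 or 4 or BAT replicate 1 or 2, with differences down to 0.175 (limma adjusted p = 0.204). The Wnt4 call was lost in 5 of 8 such fits, without WAT replicate 1, 2 or 4 or BAT replicate 2 or 4, with differences of -0.13 to -0.08 over the 8 fits.

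Of the CCN genes, Ccn5 was higher in WAT by 0.99 ± 0.08 on the corn-oil HFD (SE; limma adjusted p = 4.4e-09) and by 0.37 ± 0.08 on the low-fat diet (limma adjusted p = 0.00094). On the EPA/DHA HFD it differed by 0.13 (95% interval -0.04 to 0.30; limma adjusted p = 0.254). Ccn2 was higher in WAT on the low-fat diet by 0.60 (95% interval 0.16 to 1.03; limma adjusted p = 0.03), with 8.44, 8.90, 9.35 and 8.93 in WAT and 8.47, 8.14, 8.11 and 8.51 in BAT. The groups overlapped, with the lowest WAT array below the highest BAT arrays, and the call was lost in 5 of 8 fits that left out 1 array, without WAT replicate 2, 3 or 4 or BAT replicate 2 or 3 (0.45 to 0.75 over the 8 fits, limma adjusted p up to 0.121); its second probe gave 0.63 (limma adjusted p = 0.00802). Ccn1 differed by -0.09, -0.23 and 0.00 on the EPA/DHA HFD, the corn-oil HFD and the low-fat diet, with a 95% interval of -0.54 to 0.37 on the first.

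**Figure D5:**
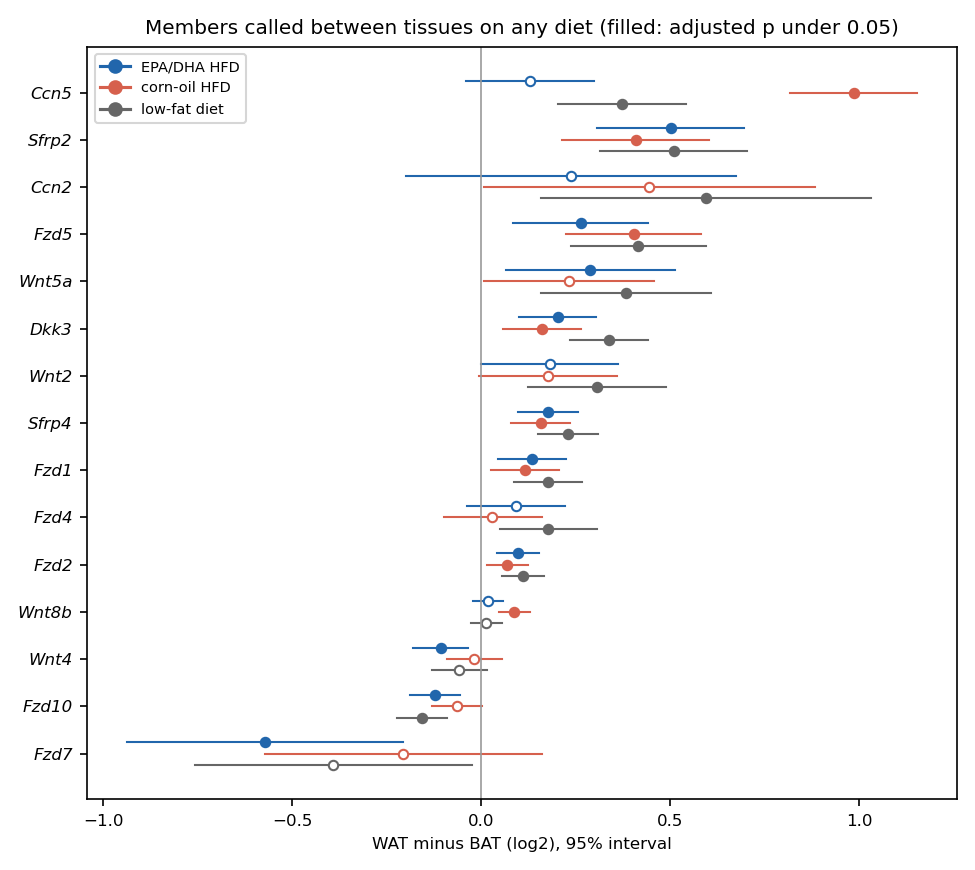
WAT minus BAT (log2) with 95% intervals for the 15 members called between tissues on any diet, on the EPA/DHA HFD, the corn-oil HFD and the low-fat diet; filled points are called by limma. Sfrp2, Sfrp4, Dkk3, Fzd5, Fzd1 and Fzd2 are filled on all 3 diets, and Ccn5 reaches 0.99 on the corn-oil HFD.

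Cell type marker levels differed widely between the tissues. The fibroblast and preadipocyte score lay over 9.75 to 9.98 in WAT and 8.30 to 9.02 in BAT, and 7 of 8 of these markers were called higher in WAT on each diet. The mesothelial score, from 6 of 7 markers, lay over 7.40 to 8.05 in WAT and near the floor, 7.08 to 7.12, in BAT. The macrophage score, from all 6 markers, lay over 9.29 to 9.88 in WAT and 7.63 to 8.09 in BAT. The skeletal muscle score, from all 6 markers, lay over 8.02 to 12.92 in BAT and 7.44 to 7.85 in WAT, with 10.29, 12.02, 8.02 and 12.92 in BAT on the EPA/DHA HFD. The 2 highest Fzd7 arrays of that group, replicates 3 and 4, had the lowest and the highest muscle score. With the muscle score as a covariate, 7, 7 and 9 members were called on the EPA/DHA HFD, the corn-oil HFD and the low-fat diet. Of these, 5, 6 and 8 were called without it too. So 5 of the 10 calls on the EPA/DHA HFD, 2 of the 8 on the corn-oil HFD and 4 of the 12 on the low-fat diet were lost. Those lost were Wnt5a, Wnt4, Fzd1, Fzd5 and Fzd10 on the EPA/DHA HFD, and on the corn-oil HFD Fzd1 and Fzd5, at 0.27 for Fzd5 (limma adjusted p = 0.161). On the low-fat diet Wnt5a and Fzd10 were among the 4, and the rest came from Fzd1, Fzd2 and Fzd4. Sfrp2 and Sfrp4 kept theirs on each diet, and Ccn2 on the low-fat diet was 1.05 (limma adjusted p = 0.00206). The muscle score did not overlap between the tissues, so this fit cannot separate muscle from tissue. A call lost, gained or kept in it is a description. The part of these cell types in the tissue differences was not tested.

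The wider pathway was read from 117 other genes in 6 lists. In WAT 3 of 88 tested (3.41%, beside 2.93% of all probes) were called on the corn-oil HFD against low-fat: Wls, which carries Wnt ligands to the cell surface, fell by 0.28 ± 0.04 (SE; limma adjusted p = 0.00557), Sav1, a scaffold of the Hippo kinases, fell by 0.31 ± 0.07 (limma adjusted p = 0.0442), and Cd44, a beta-catenin target also carried by leukocytes, rose by 0.76 ± 0.17 (limma adjusted p = 0.0437). On the EPA/DHA HFD against corn-oil 0 of 88 were called by limma and 10 had an unadjusted p under 0.05 (beside 14.7% of all probes), and Wls differed by 0.16 (limma adjusted p = 0.0593). On the EPA/DHA HFD against low-fat 0 of 88 were called by limma and 7 had an unadjusted p under 0.05 (beside 7.59%). Axin2, the standard readout of beta-catenin signalling, differed by -0.02 on the corn-oil HFD against low-fat (limma adjusted p = 0.961). In BAT 0 of 89 were called in each of the 3 diet comparisons, with 12, 8 and 6 at an unadjusted p under 0.05 for corn-oil against low-fat, EPA/DHA against low-fat and EPA/DHA against corn-oil, beside 8.06%, 5.05% and 4.65% of all probes.

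Between tissues 33 of 94 pathway genes (35.1%) were called on the EPA/DHA HFD, 29 higher and 4 lower in WAT. It was 33 (35.1%) on the corn-oil HFD, 27 higher and 6 lower, and 40 (42.6%) on the low-fat diet, 33 higher and 7 lower. Only the totals are close to the shares of all probes (31.7%, 34.4% and 37.5%). By direction the pathway genes leaned to WAT, whereas 16.3%, 18.1% and 18.7% of all probes were higher and 15.4%, 16.3% and 18.7% lower. Axl, a receptor kinase used as a YAP target, was higher in WAT by 1.76, 1.72 and 2.06 on the EPA/DHA HFD, the corn-oil HFD and the low-fat diet (limma adjusted p = 4.1e-09, 4e-09 and 2.6e-10). Wls was higher in WAT by 0.73, 0.56 and 0.95 (limma adjusted p = 3.2e-08, 1e-06 and 4.1e-10), and Wwtr1, which encodes TAZ, by 1.20, 1.11 and 1.44 (limma adjusted p = 2.7e-07, 6.1e-07 and 1.5e-08). Lgr6, an R-spondin receptor, was lower in WAT, at -1.62, -1.41 and -1.39 (limma adjusted p = 6.9e-07, 3.4e-06 and 4e-06). In the YAP, TAZ and TEAD list 8 of 13 genes were called higher in WAT on each diet, and Lats1, a Hippo kinase, was lower on the low-fat diet (-0.15). In the planar cell polarity and calcium list 2, 2 and 3 of 18 were called higher on the EPA/DHA HFD, the corn-oil HFD and the low-fat diet. The lists were not tested against each other or against the shares of all probes called higher, given above.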

How the data were processed

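RNA was hybridised to Illumina mouse arrays. The deposited log2 values are the authors' own normalised table; per the submitters' processing notes lumi 2.18.0 was used. The columns share 1 distribution (sorted values differ by at most 0.00694), as after quantile normalisation; whether the scale is plain log2 or variance-stabilised is not given in the sources used here, and detection calls were not used. Of 45281 probes 34885 carry 1 gene symbol, 18 several and 10378 none; 34807 of the named probes matched RefSeq genes.

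Probes whose tissue mean lay above the 40th percentile were tested with limma 3.58.1 in R 4.3.3 (lmFit, eBayes, Benjamini-Hochberg over all probes kept, adjusted p under 0.05): diets within each tissue (27168 probes), and WAT against BAT on each diet with the tissue-by-diet interactions in 1 fit (29493 probes kept in either tissue, without a block for the mouse). Marker scores are means over a list's genes. The number of arrays, 4 a group, limits the precision.

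Named were all members called (for the tissues, the 8 largest differences each way), or the 5 with the smallest p, and the 2 brightest of each role; Fzd1, Fzd2 and Fzd4 on the low-fat diet, the Sfrp1, Sfrp5, Axin2 and other pathway gene values and single markers were added after their values were seen. Members and lists were chosen with earlier results of these data known. Alternatives were other filters, scalings, priors, weights, probe averages, a replicate block, single arrays left out and marker scores as covariates. After group means were removed, no pair of groups had every correlation of same-numbered arrays over 0.1. The replicate 1 arrays of the WAT groups correlated with each other at 0.445, 0.498 and 0.546, and the other same-numbered WAT pairs at -0.269 to 0.296. These correlations cannot tell whether same-numbered arrays share a mouse or were handled together.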

Additional observations from a re-analysis of the deposited data

Results flagged for a closer look

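Among 108 sets of 4 arrays (a member in a group), 6 held an array far from the other 3 by Dixon's criterion at the 95% level, and chance flags about 1 in 20. Ccn5 was 7.84 in WAT corn-oil replicate 2, below 8.21 to 8.28 in the other 3 arrays; without it the differences of Ccn5 were larger. Wnt2 was 7.86 in WAT low-fat replicate 1, above 7.26 to 7.35 in the others. Fzd5 was 7.89 in WAT EPA/DHA replicate 4, above 7.70 to 7.73 in the others. Dkk3 was 7.35 in BAT EPA/DHA replicate 4, above 7.25 in the others. Fzd4 was 7.59 in BAT corn-oil replicate 3, below 7.66 to 7.67 in the others. Wnt8b was 7.09 in BAT low-fat replicate 3, below 7.12 in the others.

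The diet effect on Ccn5 differed between WAT and BAT by the interaction test. It was 0.61 for the corn-oil HFD against low-fat (limma adjusted p = 0.0172) and -0.86 for the EPA/DHA HFD against corn-oil (limma adjusted p = 0.00144), as WAT effect minus BAT effect. Ccn5 is near the array's floor in BAT, and the part of that floor in the interaction was not tested.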

How the results depend on the processing

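The count of members called in each diet comparison within WAT or BAT was the same under every alternative run, single arrays left out included. Ccn5 kept both calls in WAT in all 8 fits without 1 array (0.59 to 0.74 on the corn-oil HFD against low-fat, limma adjusted p up to 0.0412; -0.998 to -0.849 on the EPA/DHA HFD against corn-oil, limma adjusted p up to 0.012) and in all 12 other alternatives of each. In the interaction of corn-oil against low-fat, leaving out 1 array gave 0 to 1 members called, with 0 without WAT low-fat replicate 4; the cause was not tested. Between the tissues, leaving out 1 array gave 7 to 11 members called on the EPA/DHA HFD, 6 to 8 on the corn-oil HFD and 10 to 14 on the low-fat diet, and the other alternatives gave 7 to 11, 6 to 10 and 9 to 13. Over 72 results for named members, 1420 of 1478 alternative values kept their direction and side of the threshold, 58 lost the call and none turned round. Sfrp2 kept its tissue calls in every alternative run, and so did Sfrp4, which passed the filter through WAT alone but was called without a filter too.

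With a replicate block, 9, 6 and 12 members were called between the tissues on the EPA/DHA HFD, the corn-oil HFD and the low-fat diet, against 10, 8 and 12 without it; the calls lost were Wnt5a on the EPA/DHA HFD and Fzd1 and Fzd2 on the corn-oil HFD. The block changed no other call of a member, and the numbers are not shown to mark shared mice.

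The number of probes called over the whole array moved more. For the corn-oil HFD against low-fat in WAT it was 797, with 266 to 602 without 1 array and 381 to 958 under the other alternatives. For the EPA/DHA HFD against corn-oil in WAT it was 477, with 175 to 465 and 270 to 649. For the EPA/DHA HFD against low-fat in WAT it was 13, with 0 to 9 and 1 to 14. In BAT it was 0 for corn-oil against low-fat, 2 for EPA/DHA against low-fat and 0 for EPA/DHA against corn-oil, with up to 150, 25 and 6 under the other alternatives. Between the tissues it was 9347, 10138 and 11050 on the EPA/DHA HFD, the corn-oil HFD and the low-fat diet, with down to 5348, 5954 and 6195. For the corn-oil against low-fat interaction it was 149, with 55 to 149 and 96 to 176, for EPA/DHA against corn-oil 58, with 34 to 74 and 47 to 69, and for EPA/DHA against low-fat 3, with 2 to 5 and 2 to 4. The fits with marker scores as covariates, without the 2 WAT arrays of high brown adipocyte score and with median centring over kept probes were chosen after seeing the data. Signal close to the floor limits what can be said of most ligands.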
